A study of Mus musculus with 18 samples.

Results

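The transcripts described here are those of 42 genes of DNA replication and cell division, 22 of them named as S-phase genes and 20 as mitotic genes, in 3 subsets of mouse splenic dendritic cells. The genes were given as a list of symbols, and all 42 were found in each of the 3 raw count tables, which hold 15219 genes in common and 17903 in all. The cells were sorted from spleens of mice that carried a floxed Hdac1 gene (labelled HDAC1 floxed) and of mice labelled HDAC1 Mx1-Cre, in which the Mx1 promoter, which responds to interferon, drives the recombinase. All mice had received polyI:C, an inducer of interferon, and were sorted 2 weeks later, so every group shared that treatment. Conventional dendritic cells of type 1 (cDC1) were gated by XCR1, conventional dendritic cells of type 2 (cDC2) by CD11b without XCR1, and plasmacytoid dendritic cells (pDC) by BST2 with intermediate CD11c. The labels give 18 samples, 6 for each subset, of which 3 were from each genotype. The sources used here do not give the age of the mice or how active Mx1-Cre was in each subset.

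Cells that divide copy their DNA in S phase and separate the copies in mitosis. The E2F transcription factors switch on the genes for origin licensing, the replication fork and nucleotide synthesis late in G1. A later wave, controlled through the MuvB complex with B-MYB and FOXM1, supplies the cyclins, kinases and spindle proteins of G2 and mitosis. In resting cells the DREAM complex holds both sets low. Dendritic cells arise from dividing precursors. In the spleen cDC2 and cDC1 keep some capacity to divide, whereas pDC leave the bone marrow as cells that mostly no longer divide.

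The columns of the tables carry codes that match no sample label, so the genotype of a library is not known here and genotype was not compared. Each table was taken to hold the subset in its own name, and marker genes were checked against that. Xcr1 lay at 821 to 1140 CPM (counts per 1000000 counts of the library) in the cDC1 libraries and at most at 9.9 CPM in the others. Clec4a4 lay at 232 to 329 CPM in cDC2 and at most at 7.32 CPM elsewhere, and Siglech at 8010 to 9300 CPM in pDC and at most at 39.1 CPM elsewhere. The summed marker lists, of 8 genes each, did not all follow the names. The cDC1 list reached 3670 to 4780 CPM in cDC1 and 4590 to 5030 CPM in pDC, where Irf8 made up 4210 to 4660 CPM. The cDC2 list reached 1150 to 1510 CPM in cDC2 and 1480 to 1900 CPM in pDC, where Cd209a made up 823 to 1300 CPM and Clec10a 342 to 467 CPM. The pDC list was at 20300 to 23100 CPM in pDC and at most at 227 CPM elsewhere. Hdac1 itself ran from 4.94 to 74.6 CPM in cDC1, from 5.78 to 79.7 CPM in cDC2 and from 9.52 to 124 CPM in pDC, a range that checks no label because no column has a genotype. Library totals ran from 23530860 to 37105002 counts. No pair of libraries of a subset agreed within sampling noise (chi-square of at least 10.9 per gene, against about 1 from sampling alone). The cDC1 library a172 stood apart from the other cDC1 libraries, with a chi-square per gene of 103 to 152.9 for its pairs and 25.2 to 69.4 for the rest. Its 20 most abundant genes took 21.6% of its counts, against 26.8 to 29.5% in the others. Its plasma cell (360.5 CPM) and monocyte (392.3 CPM) marker sums were the highest of its subset. The next were a160 at 265.4 CPM and a166 at 306.9 CPM. Jchain alone made up 352.3 CPM of the plasma cell sum of a172. The cDC1 (4780 CPM), progenitor (640.7 CPM), T cell (78.5 CPM) and B cell (192.2 CPM) sums were also highest in a172. Its erythroid sum (3270 CPM) was the lowest. Without a172 the S-phase sum of cDC1 was 958.3 CPM and its mitotic sum 362.8 CPM. The counts of members called were then 4 higher and 25 lower in cDC1 than in cDC2, and 37 higher and 1 lower in cDC1 than in pDC. With all libraries, 24.8% of all genes tested were called higher and 25.7% lower in cDC1 than in cDC2. Against pDC these shares were 34.3% and 32.1%. Each group of 6 mixes both genotypes, so its spread includes any difference between them. The labels do not say whether libraries came from separate mice or whether 1 mouse gave several subsets, so p-values measure only the spread between these samples.

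Motifs known from cell cycle promoters were looked for in the members' promoters, which their choice did not use, and 6 promoters are shown as examples with and without matches. Aside from Nusap1, the windows of Birc5, Ccne1, Chaf1b, Dut, E2f1 and Tyms also held none of the motifs. The promoter windows run from 250 bases before to 50 after the transcription start, taken from RefSeq on GRCm38.p6, and 35 of the 42 members matched with 37 windows. Capitals mark matches, on either strand, to the E2F-type motifs TTTCCCGC, TTTGGCGC, TTTCGCGC and TTTGCCGC, to the cell cycle homology region (CHR) TTTGAA, and to the CCAAT box. Where 2 matches overlap, as the first 2 E2F-type matches of Mcm6 do, they form 1 run of capitals. The S-phase genes Mcm6 (chr1:128359656-128359955, minus strand), which encodes a subunit of the replicative helicase, and Cdc6 (chr11:98907901-98908200, plus strand), which loads that helicase at origins, hold E2F-type matches.
Mcm6: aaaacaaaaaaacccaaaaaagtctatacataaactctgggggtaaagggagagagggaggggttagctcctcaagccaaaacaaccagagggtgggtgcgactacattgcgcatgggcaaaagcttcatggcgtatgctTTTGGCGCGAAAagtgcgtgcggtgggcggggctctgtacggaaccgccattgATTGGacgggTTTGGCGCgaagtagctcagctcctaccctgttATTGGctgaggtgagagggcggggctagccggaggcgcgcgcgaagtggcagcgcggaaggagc
Cdc6: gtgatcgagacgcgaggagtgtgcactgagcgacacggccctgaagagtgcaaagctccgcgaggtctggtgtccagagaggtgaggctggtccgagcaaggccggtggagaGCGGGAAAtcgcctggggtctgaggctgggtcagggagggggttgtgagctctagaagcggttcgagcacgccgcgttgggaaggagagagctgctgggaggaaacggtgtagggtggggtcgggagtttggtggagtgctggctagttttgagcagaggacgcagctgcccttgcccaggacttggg
The mitotic genes Cdk1 (chr10:69352863-69353162, minus strand), the kinase that starts mitosis, Ccnb2 (chr9:70421505-70421804, minus strand), a cyclin that activates it, and Cdc20 (chr4:118437294-118437593, minus strand), which directs the anaphase-promoting complex to destroy such cyclins, hold CHR and CCAAT matches. Cdk1 holds an E2F-type match as well.
Cdk1: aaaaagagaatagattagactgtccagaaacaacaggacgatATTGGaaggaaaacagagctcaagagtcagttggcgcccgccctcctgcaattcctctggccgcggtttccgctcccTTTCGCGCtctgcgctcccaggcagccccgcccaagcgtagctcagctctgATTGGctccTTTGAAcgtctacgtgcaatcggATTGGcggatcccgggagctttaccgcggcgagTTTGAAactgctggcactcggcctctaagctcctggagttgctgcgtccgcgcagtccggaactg
Ccnb2: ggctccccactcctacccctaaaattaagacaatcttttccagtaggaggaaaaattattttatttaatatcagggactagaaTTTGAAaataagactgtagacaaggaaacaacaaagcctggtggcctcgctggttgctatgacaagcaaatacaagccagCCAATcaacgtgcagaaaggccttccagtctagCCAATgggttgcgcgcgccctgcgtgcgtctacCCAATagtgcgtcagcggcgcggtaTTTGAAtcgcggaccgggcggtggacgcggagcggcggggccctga
Cdc20: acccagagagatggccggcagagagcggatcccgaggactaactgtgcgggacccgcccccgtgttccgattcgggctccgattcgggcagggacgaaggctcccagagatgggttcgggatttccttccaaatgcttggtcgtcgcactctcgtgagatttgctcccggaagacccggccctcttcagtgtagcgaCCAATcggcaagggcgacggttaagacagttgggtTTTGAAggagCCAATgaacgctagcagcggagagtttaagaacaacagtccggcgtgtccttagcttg
Nusap1 (chr2:119618048-119618347, plus strand), which encodes a protein that bundles spindle microtubules, holds none of these letters in its window and is shown for contrast.
Nusap1: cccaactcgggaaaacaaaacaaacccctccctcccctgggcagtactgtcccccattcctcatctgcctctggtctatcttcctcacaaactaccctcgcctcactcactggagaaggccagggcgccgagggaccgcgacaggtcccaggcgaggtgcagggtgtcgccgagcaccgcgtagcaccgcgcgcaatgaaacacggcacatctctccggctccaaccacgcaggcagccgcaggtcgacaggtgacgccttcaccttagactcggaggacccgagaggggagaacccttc

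In Ccnb2 the 3 CCAAT matches begin 87, 54 and 21 bases before the start, and in Mcm6 the E2F-type matches begin 110, 106 and 47 bases before it. E2F-type letters occurred in 6 of 20 S-phase windows (30%) and in 1 of 17 mitotic windows (5.88%), against 3.77% of the 13509 windows of genes tested and 2.26% of all 32851 windows. CHR letters occurred in 12 of 17 mitotic windows (70.6%), in 3 of 20 S-phase windows (15%), in 13.3% of the windows of genes tested and in 17.9% of all windows. CCAAT letters occurred in 14 of 17 mitotic windows (82.4%), in 11 of 20 S-phase windows (55%), in 38.2% of the windows of genes tested and in 37.4% of all windows. Both CHR and CCAAT stood in 11 of 17 mitotic windows (64.7%), in 5.4% of those of genes tested and in 6.95% of all windows. Genes called higher in cDC1 than in cDC2 and genes called lower both held such matches, as Cdc20 and Top2a show with at least 1 CHR and 1 CCAAT match each. These are matches of letters and were not tested as sites.

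**Figure D1:**
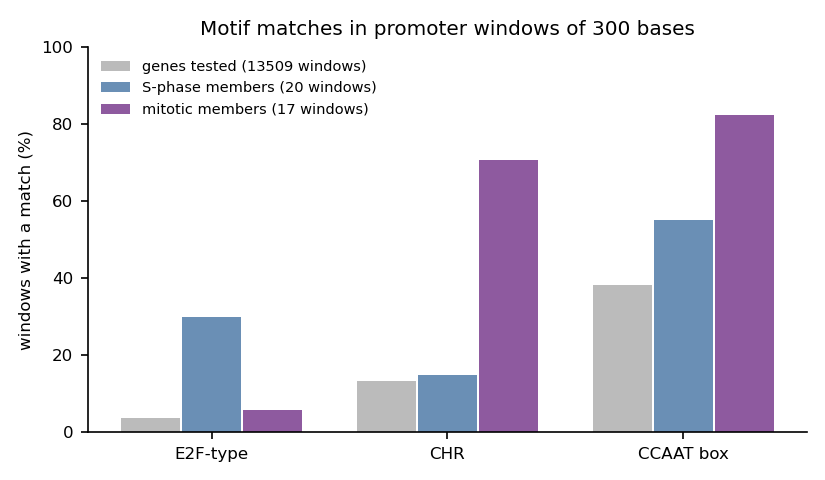
Share of promoter windows of 300 bases (vertical axis, percent) with at least 1 match to the E2F-type, CHR or CCAAT letters, for 20 windows of S-phase members, 17 of mitotic members and 13509 of genes tested. The bars for mitotic members reach 70.6% for CHR and 82.4% for CCAAT, and the bar for S-phase members reaches 30% for the E2F-type letters.

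Cell cycle transcripts stood highest in cDC2, lower in cDC1 and lowest in pDC, and the mitotic genes separated pDC from the conventional subsets more widely than the S-phase genes did. The summed level of the 22 S-phase genes was 974 ± 56.1 CPM in cDC1, 1390 ± 126 CPM in cDC2 and 727 ± 61.4 CPM in pDC (SD, n = 6 libraries each). Library values ran from 900 to 1050, from 1280 to 1560 and from 654 to 797 CPM, so the 3 subsets did not overlap. The summed level of the 20 mitotic genes was 374 ± 42.9 CPM in cDC1, 415 ± 81 CPM in cDC2 and 100 ± 29.8 CPM in pDC (SD, n = 6 libraries each). Here cDC1 (324 to 431 CPM) and cDC2 (340 to 518 CPM) overlapped, and pDC (60.7 to 129 CPM) lay below both. The mitotic sum divided by the S-phase sum gave 0.36 to 0.423 in cDC1, 0.259 to 0.333 in cDC2 and 0.0928 to 0.173 in pDC. The order of the subsets by this ratio therefore differed from their order by either sum, with cDC1 highest. Ccnb1, Ccnb2 and Cdc20 alone made up 27.8 to 32.1% of the mitotic sum in cDC1. Their share was 12.2 to 14.8% in cDC2 and 12.7 to 17.9% in pDC. The ratio was not computed without these genes, so its order may not hold for the other mitotic members. These sums are descriptions with no test. In bulk RNA, fewer dividing cells and less RNA per dividing cell cannot be told apart.

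**Figure D2:**
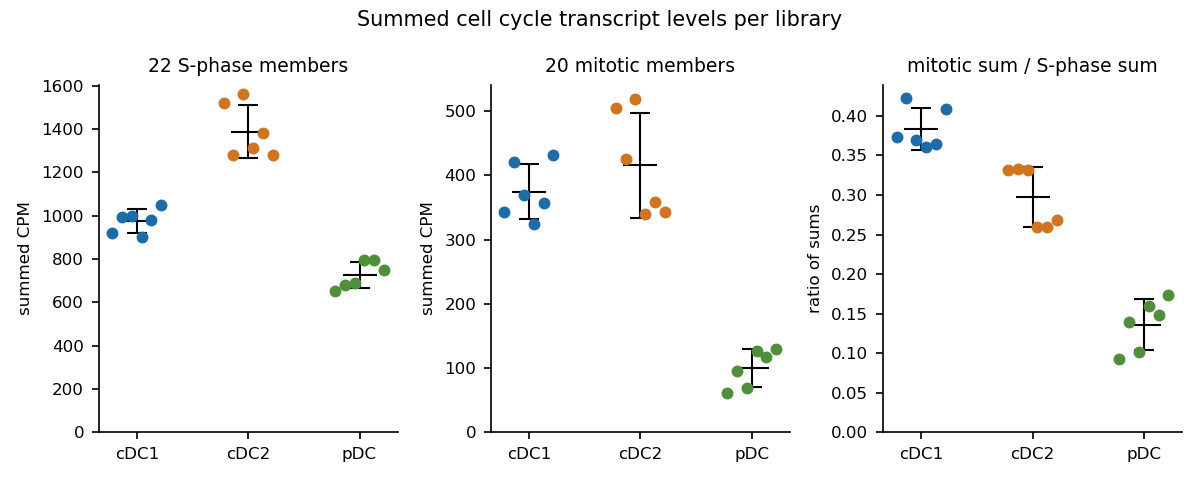
Summed CPM of the 22 S-phase genes (left), of the 20 mitotic genes (middle) and the ratio of the mitotic to the S-phase sum (right) for each of 6 libraries per subset, with the mean and SD as bars. The S-phase sums do not overlap between subsets, the mitotic sums of cDC1 and cDC2 do, and pDC is lowest in all 3 panels.

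Gene by gene, 29 of the 42 members had the order cDC2, cDC1, pDC by mean CPM, 15 of them S-phase and 14 mitotic. Another 7 members were highest in cDC1 with pDC lowest, namely Gins2, Ccnb1, Ccnb2, Cdc20, Plk1, Hmmr and Cenpe. A further 5 S-phase genes (Rfc2, Fen1, Rrm1, E2f1 and Slbp) had their lowest mean CPM in cDC1, and Cdc45 alone had its lowest in cDC2. Some of these orders depend on scaling, since CPM use library totals and the fit uses TMM factors. In the fit, cDC1 minus pDC was 0.00 for Rfc2 and above 0 for Fen1 (0.14) and Rrm1 (0.16), and cDC2 minus pDC was 0.16 for Cdc45, none of them called. No member had its highest mean in pDC. Differences between neighbours in these orders are given below with their errors, and several did not pass the test.

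**Figure D3:**
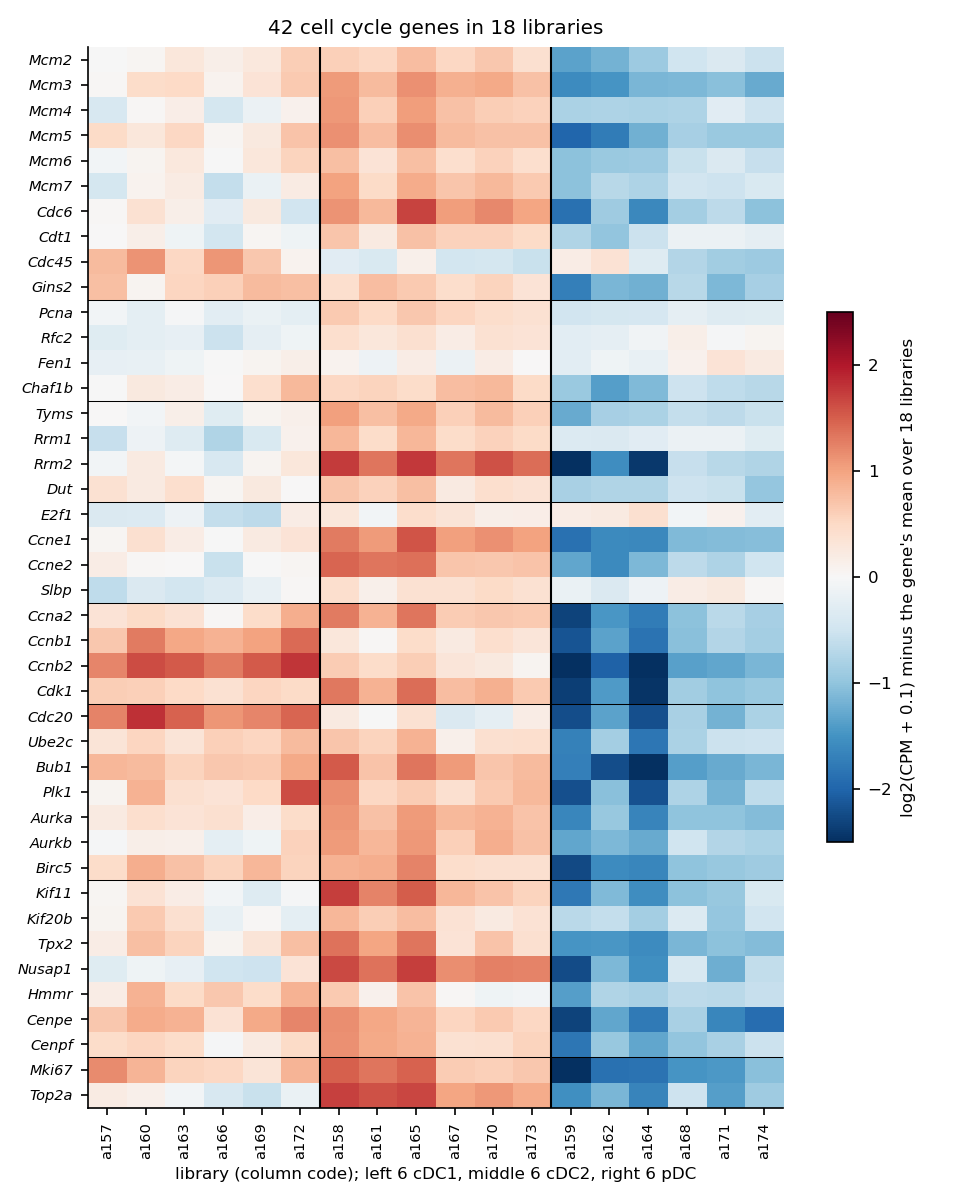
Levels of the 42 genes (rows, in role order) in the 18 libraries (columns by code, 6 per subset), as log2(CPM + 0.1) minus the gene's mean over all libraries. The pDC columns are lowest for most rows, and Ccnb1, Ccnb2, Cdc20 and Cdc45 are the rows called higher in cDC1 than in cDC2.

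Against cDC2, cDC1 had lower levels of most S-phase genes and of some mitotic ones, while 4 genes were higher. With edgeR's quasi-likelihood test and an adjusted p under 0.05, 25 members were higher in cDC2 and 4 were higher in cDC1 (Cdc45, Ccnb1, Ccnb2 and Cdc20), and 13 were not called. Over all 13539 genes tested, 25.7% were higher in cDC2 and 24.8% were higher in cDC1. The median log2 fold change, cDC1 minus cDC2, was -0.48 over the members and 0.01 over all genes. Of the 22 S-phase genes, 18 were lower in cDC1, from Dut (-0.27) to Rrm2 (-1.51). Of the 20 mitotic genes, 7 were lower, from Tpx2 (-0.44) to Nusap1 (-1.62), 3 were higher and 10 were not called. The CPM ranges of the 6 and 6 libraries were apart for 20 members with cDC2 above and for 3 with cDC1 above (Ccnb1, Ccnb2 and Cdc20). Over all 15219 shared genes such separation was seen for 12.3% with cDC2 above and 12% with cDC1 above.

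Against pDC, cDC1 had higher levels of all 20 mitotic genes and of 17 of the 22 S-phase genes. The 37 members called stand beside 34.3% of all genes tested that were higher in cDC1, and 32.1% of all genes were higher in pDC. In that direction 0 members were called by edgeR, by DESeq2 or by limma, and 0 reached an unadjusted p under 0.05 with any of them. The members not called were Rfc2, Fen1, Rrm1, E2f1 and Slbp. The median log2 fold change was 1.38 over the members and 0.04 over all genes. Mitotic genes ranged from Kif20b (1.01) to Ccnb2 (3.49) and called S-phase genes from Pcna (0.41) to Gins2 (1.92). Library ranges were apart for 29 members, all with cDC1 above, against 15.2% of shared genes in that direction and 24.8% with pDC above. With library totals in place of TMM scaling factors, the median of all genes moved by -0.21, the share of calls that were higher in cDC1 fell from 51.7% to 38.6%, and Rfc2, E2f1 and Slbp were called higher in pDC.

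Between cDC2 and pDC the difference was widest, with all 20 mitotic genes and 20 of the 22 S-phase genes higher in cDC2. Cdc45 and Fen1 were not called. Of all genes tested, 32.2% were higher in cDC2 and 32% were higher in pDC. Again 0 members were called higher in pDC by edgeR, DESeq2 or limma, and 0 had an unadjusted p under 0.05 in that direction. The median log2 fold change was 1.92 over the members and 0.01 over all genes. Mitotic genes ranged from Hmmr (1.27) to Bub1 (3.02) and called S-phase genes from E2f1 (0.31) to Rrm2 (3.02). Library ranges were apart for 38 members with cDC2 above, against 16.8% of shared genes in that direction and 29.2% with pDC above. Library totals moved the median of all genes by -0.21 and the share of calls higher in cDC2 from 50.1% to 37.3%, and E2f1 was then no longer called. The 3 comparisons share libraries, so their values are not independent of one another.

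**Figure D4:**
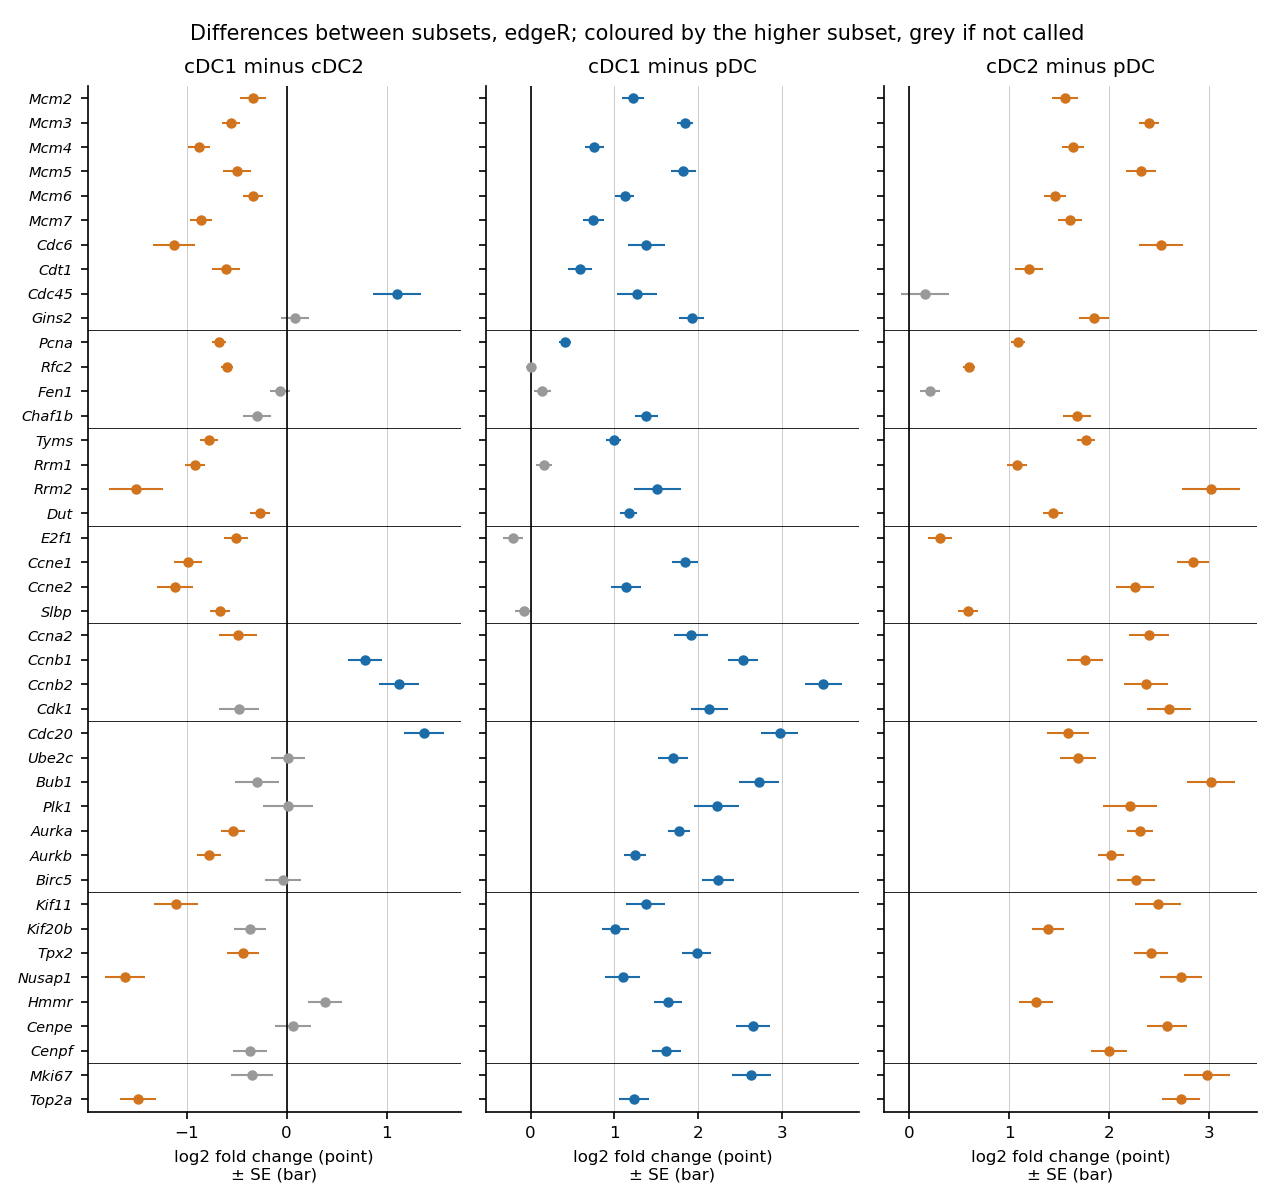
Fitted log2 fold change of each member (point) with its SE (bar) for cDC1 minus cDC2, cDC1 minus pDC and cDC2 minus pDC, coloured by the higher subset and grey where the adjusted p was 0.05 or more. Most points lie left of 0 in the first panel, where Cdc45, Ccnb1, Ccnb2 and Cdc20 lie right, and nearly all lie right of 0 in the other panels.

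The MCM proteins form the helicase ring that is loaded on origins by CDC6 and CDT1 and switched on by CDC45 and the GINS complex. All 6 Mcm genes were lower in cDC1 than in cDC2, by log2 0.34 (Mcm2 and Mcm6) to 0.88 (Mcm4), and all 6 were higher in both conventional subsets than in pDC. Exons of Mcm7 overlap those of Cops6 on the opposite strand, which was at 107 to 189 CPM over all libraries, with log2 0.18 for cDC1 minus cDC2. The call for Mcm2 between cDC1 and cDC2 (adjusted p = 0.031) was lost without a157, a160, a165 or a170 (adjusted p 0.057 to 0.072). Library totals in place of TMM factors also lost it (adjusted p = 0.057). Cdc6 ran from 3.37 to 6.22 CPM in cDC1 (median 5.06), from 8.41 to 15.6 CPM in cDC2 (median 10.2) and from 1.23 to 2.99 CPM in pDC (median 2.39). No subset overlapped another. Its log2 fold changes were -1.13 ± 0.21 for cDC1 minus cDC2 (adjusted p = 0.00012), 1.38 ± 0.22 for cDC1 minus pDC (adjusted p = 1.1e-05) and 2.52 ± 0.22 for cDC2 minus pDC (adjusted p = 2.9e-09), each ± SE.

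Cdc45 and Gins2, which complete the active helicase, departed from the Mcm pattern. Cdc45 ran from 74.9 to 152 CPM in cDC1 (median 116), from 47.8 to 76.9 CPM in cDC2 (median 52.7) and from 37.4 to 90.7 CPM in pDC (median 49.4). The lowest cDC1 library was below the highest library of either other subset. Cdc45 was higher in cDC1 than in cDC2 by log2 1.10 ± 0.24 (adjusted p = 0.00069) and than in pDC by 1.27 ± 0.24 (adjusted p = 0.00011), and cDC2 minus pDC was 0.16 ± 0.24 (adjusted p = 0.57). The exons of Cdc45 overlap those of Ufd1, a gene of protein degradation on the opposite strand, and the sources used here do not say whether the counting used strand. Ufd1 itself stood at 54.4 to 70.4 CPM in cDC1, 49.3 to 57 CPM in cDC2 and 68.4 to 79.9 CPM in pDC, with log2 0.23 between cDC1 and cDC2. Gins2 lay at 13.9 to 22.9 CPM in cDC1 (median 21.2), at 16.9 to 22.6 CPM in cDC2 (median 18.7) and at 3.97 to 8.18 CPM in pDC (median 5.97). The conventional subsets overlapped for Gins2 (log2 0.08 ± 0.14, adjusted p = 0.68), and both lay above pDC by log2 1.92 ± 0.15 (adjusted p = 3.5e-10) and 1.85 ± 0.15 (adjusted p = 6.4e-10). Exons of Gins2 overlap those of Gse1 on the opposite strand, which was at 3.53 to 16.8 CPM over all libraries.

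At the fork, PCNA is the sliding clamp, the replication factor C complex with its subunit RFC2 loads it, FEN1 trims Okazaki fragments, and CHAF1B places histones on new DNA. Per kilobase of exon, Pcna had the highest level of all members in each subset, at 65.2 CPM per kb in cDC1, 106 in cDC2 and 57.1 in pDC. Its CPM ran from 147 to 172.4 in cDC1 (median 153), from 229.7 to 279 in cDC2 (median 250.2) and from 127 to 151 in pDC (median 136). The cDC2 libraries were all above the others, and cDC1 and pDC overlapped slightly. Pcna differed by log2 -0.68 ± 0.07 for cDC1 minus cDC2 (adjusted p = 7.3e-08), by 0.41 ± 0.07 for cDC1 minus pDC (adjusted p = 2.9e-05) and by 1.09 ± 0.07 for cDC2 minus pDC (adjusted p = 2.2e-11). Pseudogenes named after Pcna exist in the annotation, and the sources used here do not say how such reads were shared.

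Rfc2 and Fen1 were among the 5 members not called between cDC1 and pDC. Rfc2 lay at 55.1 to 73.9 CPM in cDC1 (median 68), 91.6 to 108 CPM in cDC2 (median 103) and 66.5 to 88.5 CPM in pDC (median 77.3). It was lower in cDC1 than in cDC2 by log2 0.60 ± 0.06 (adjusted p = 9e-08), and higher in cDC2 than in pDC by the same amount (0.60 ± 0.06, adjusted p = 3.6e-08). For cDC1 minus pDC the value was 0.00 ± 0.06 (adjusted p = 1), and -0.21 ± 0.08 with library totals (adjusted p = 0.028), where the call was higher in pDC. Exons of Rfc2 overlap those of Lat2 on the opposite strand, which was at 228 to 242 CPM in pDC, 89 to 109 CPM in cDC2 and 55.7 to 83.7 CPM in cDC1. Fen1 was not called in any comparison, with medians of 36, 38.8 and 37.4 CPM and overlapping ranges. Exons of Fen1 overlap those of Tmem258 on the opposite strand, which was at 151 to 192 CPM in cDC1, 84.4 to 119 CPM in cDC2 and 180.5 to 209.8 CPM in pDC, with log2 0.64 for cDC1 minus cDC2 and -0.63 for cDC2 minus pDC. The difference of Fen1 between cDC2 and pDC (log2 0.21, adjusted p = 0.062) passed without a161 (adjusted p = 0.049) or a171 (adjusted p = 0.017). Chaf1b ran from 9.22 to 16.3 CPM in cDC1 (median 10.8), 12.8 to 16.4 CPM in cDC2 (median 13.4) and 3.52 to 6.43 CPM in pDC (median 5.25). Its difference between the conventional subsets did not pass (log2 -0.30 ± 0.14, adjusted p = 0.079) until the cDC1 library a172 was left out (-0.38, adjusted p = 0.031). Both conventional subsets were above pDC, by log2 1.38 ± 0.14 (adjusted p = 4.3e-08) for cDC1 and 1.68 ± 0.14 (adjusted p = 2.3e-09) for cDC2.

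Among genes of nucleotide supply, the 2 ribonucleotide reductase subunits behaved differently. RRM2 is the subunit that limits the enzyme in cycling cells, and RRM1 is the more stable large subunit. Rrm2 ran from 19.9 to 32 CPM in cDC1 (median 26.7), from 66.8 to 90.3 CPM in cDC2 (median 74.6) and from 2.74 to 17.6 CPM in pDC (median 12.3). No subset overlapped another, and pDC spread the most, with a159, a164 and a162 at 2.74, 4.91 and 8.98 CPM and the other 3 libraries at 15.6 to 17.6 CPM. The log2 fold changes of Rrm2 were -1.51 ± 0.27 for cDC1 minus cDC2 (adjusted p = 0.00011), 1.51 ± 0.28 for cDC1 minus pDC (adjusted p = 8.9e-05) and 3.02 ± 0.29 for cDC2 minus pDC (adjusted p = 1.4e-08). Rrm1 ran from 23.9 to 43.5 CPM in cDC1 (median 31.5), from 54.9 to 71.6 CPM in cDC2 (median 57.7) and from 31.2 to 36.5 CPM in pDC (median 32.6). It was lower in cDC1 than in cDC2 by log2 0.92 ± 0.10 (adjusted p = 8.4e-08) and higher in cDC2 than in pDC by 1.08 ± 0.10 (adjusted p = 3.4e-09), and cDC1 minus pDC was 0.16 ± 0.09 (adjusted p = 0.15). The Rrm2 count was 0.736 to 0.934 times the Rrm1 count in cDC1, 1.21 to 1.33 times in cDC2 and 0.0868 to 0.485 times in pDC. This ratio was chosen after the values were seen and has no test.

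Dut, whose product keeps uracil out of DNA, lay at 46.7 to 62.1 CPM in cDC1 (median 54.2), 54.2 to 77.3 CPM in cDC2 (median 65.1) and 23.5 to 32.1 CPM in pDC (median 27.3). The conventional subsets overlapped. The log2 difference of -0.27 ± 0.10 (adjusted p = 0.033) was lost when any of the libraries a166, a172, a161 or a165 was left out (adjusted p 0.054 to 0.088). A fit of the 2 subsets alone over all genes that both list also lost it (adjusted p = 0.054). Dut stood above pDC by log2 1.17 ± 0.10 in cDC1 (adjusted p = 2.9e-09) and 1.44 ± 0.10 in cDC2 (adjusted p = 1.3e-10). Tyms, the gene of thymidylate synthase, followed the common order, with log2 -0.78, 0.99 and 1.77 in the 3 comparisons. A pseudogene named after Tyms exists in the annotation.

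The genes of the G1/S switch split in 2. Cyclin E, the partner of CDK2 at the start of S phase, followed the common order. Ccne1 ran from 3.71 to 4.94 CPM in cDC1 (median 4.31), from 7.6 to 11.2 CPM in cDC2 (median 8.13) and from 0.941 to 1.73 CPM in pDC (median 1.42), with no overlap. Its log2 fold changes were -0.99 ± 0.14 (adjusted p = 7.3e-06) for cDC1 minus cDC2, 1.84 ± 0.15 (adjusted p = 1.3e-09) for cDC1 minus pDC and 2.84 ± 0.16 (adjusted p = 1.8e-12) for cDC2 minus pDC. Ccne2 gave -1.12, 1.14 and 2.26 in the same order. Exons of Ccne2 overlap those of Ints8 on the opposite strand, which was at 22.1 to 39.9 CPM over all libraries. Slbp, whose product binds the stem-loop of histone mRNA, and E2f1 were instead not called between cDC1 and pDC. Slbp lay at 100.6 to 157.7 CPM in cDC1 (median 121.8), 170.8 to 215.2 CPM in cDC2 (median 203) and 121.3 to 183.4 CPM in pDC (median 151.1). The pDC range overlapped both others. Slbp was lower in cDC1 than in cDC2 by log2 0.67 ± 0.10 (adjusted p = 1.2e-05), higher in cDC2 than in pDC by 0.59 ± 0.10 (adjusted p = 2.8e-05), and -0.08 ± 0.10 for cDC1 minus pDC (adjusted p = 0.52; -0.29 and adjusted p = 0.022 with library totals). E2f1 medians were 16.4, 24.4 and 23.2 CPM. Its small difference between cDC2 and pDC (log2 0.31 ± 0.12, adjusted p = 0.032) was lost without a158, a165, a167, a168, a171 or a174 (adjusted p 0.055 to 0.17). The difference between cDC1 and pDC (-0.21 ± 0.12, adjusted p = 0.14) passed without a172 (-0.28) or a174 (-0.34).

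The cyclins that activate CDK1 divided along a different line. Cyclin B2 showed the largest difference from pDC among the mitotic genes of cDC1. Ccnb2 ran from 50.8 to 75.9 CPM in cDC1 (median 63.3), from 23 to 34.1 CPM in cDC2 (median 28.5) and from 3.13 to 9.88 CPM in pDC (median 6.85). Every cDC1 library lay above every cDC2 library, and every cDC2 library above every pDC library. Its log2 fold changes were 1.12 ± 0.20 for cDC1 minus cDC2 (adjusted p = 9.5e-05), 3.49 ± 0.22 for cDC1 minus pDC (adjusted p = 2.1e-11) and 2.37 ± 0.22 for cDC2 minus pDC (adjusted p = 5.6e-09). Ccnb1, described here because it was among the 4 members higher in cDC1, lay at 21.7 to 36 CPM in cDC1, 13.8 to 18.5 CPM in cDC2 and 2.94 to 8.12 CPM in pDC, without overlap. It was higher in cDC1 than in cDC2 by log2 0.78 ± 0.17 (adjusted p = 0.00072). Pseudogenes named after Ccnb1 and Ccnb2 exist in the annotation, so their levels are uncertain to that extent.

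Cdk1, the kinase that both B cyclins activate, was not called higher in cDC1 than in cDC2 as those cyclins were. It ran from 22.2 to 25.9 CPM in cDC1 (median 24.2), from 26.7 to 45 CPM in cDC2 (median 31.3) and from 3.01 to 9.26 CPM in pDC (median 7.34). All cDC2 libraries were above all cDC1 libraries, yet the log2 difference of -0.48 ± 0.20 did not pass (adjusted p = 0.055). It passed in a fit of the 2 subsets alone (adjusted p = 0.0031), with DESeq2 (adjusted p = 0.048) and without a173, a159, a164, a168 or a174 (adjusted p 0.022 to 0.048). Both conventional subsets were above pDC, by log2 2.13 ± 0.22 (adjusted p = 3e-08) and 2.60 ± 0.22 (adjusted p = 1.6e-09). Ccna2, the cyclin of S phase and G2, was lower in cDC1 than in cDC2 by log2 0.49 ± 0.19 (adjusted p = 0.039), a call lost in 7 of the 18 fits that left out 1 library, with a157, a160, a163, a166, a158, a161 or a165 left out (adjusted p 0.052 to 0.1). The call was also lost with library totals in place of TMM factors (adjusted p = 0.067). Exons of Ccna2 overlap those of Exosc9 on the opposite strand, which was at 33.7 to 55.3 CPM over all libraries. The Ccnb2 count was 2.42 to 3.15 times the Ccna2 count in cDC1, 0.795 to 1.04 times in cDC2 and 0.636 to 1.06 times in pDC. The ratio is not corrected for length and was chosen after the values were seen, so it is read only between subsets.

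Among the mitotic kinases and the anaphase-promoting complex, Cdc20 stood with the B cyclins. It lay at 20.9 to 34.5 CPM in cDC1 (median 24.7), 7.52 to 12.5 CPM in cDC2 (median 10.3) and 2 to 5.51 CPM in pDC (median 3.98), without overlap, and is described because it was among the 4 members higher in cDC1. The difference between cDC1 and cDC2 was log2 1.37 ± 0.20 (adjusted p = 9.9e-06). Elovl1, whose exons overlap those of Cdc20 on the opposite strand, gave 0.28 in the same comparison. Its level was above that of Cdc20, at 117.3 to 153.4 CPM in cDC1, 92.8 to 122.3 CPM in cDC2 and 128.7 to 183.9 CPM in pDC. Together Ccnb1, Ccnb2 and Cdc20 made up 27.8 to 32.1% of the mitotic sum in cDC1, 12.2 to 14.8% in cDC2 and 12.7 to 17.9% in pDC, a grouping chosen after the values were seen. Ube2c, the ubiquitin-conjugating enzyme that works with CDC20, was not called between the conventional subsets (log2 0.01, adjusted p = 0.96).

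**Figure D5:**
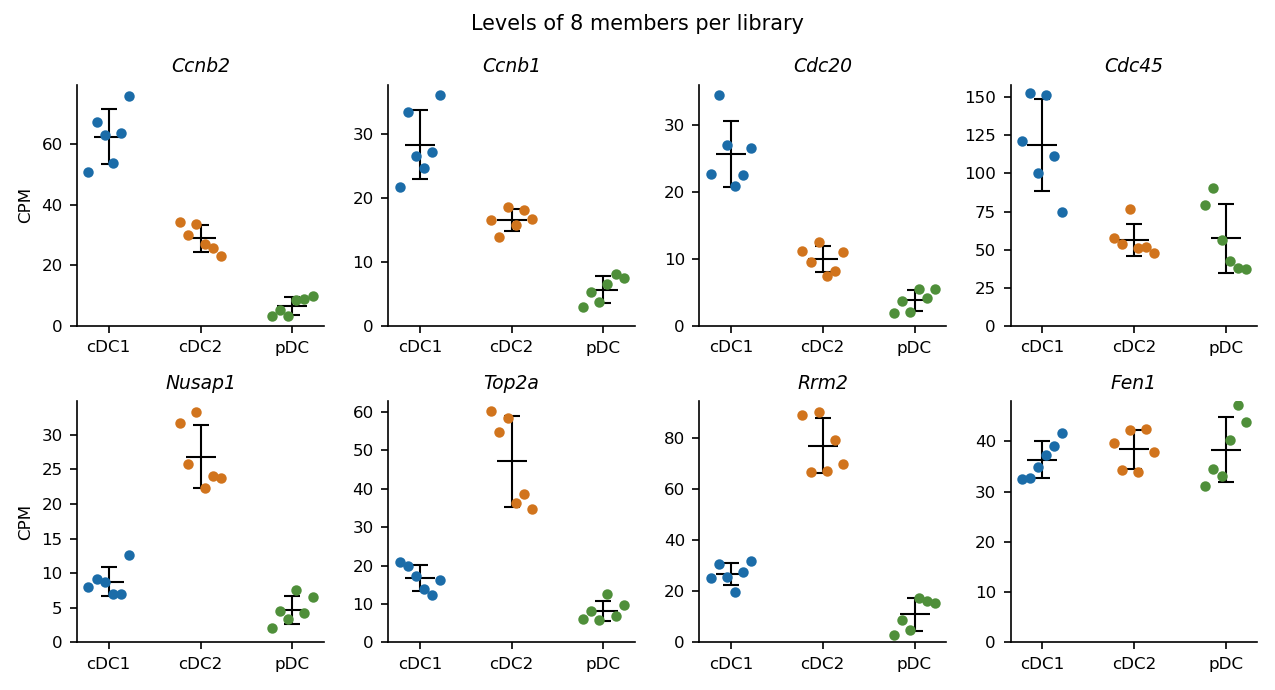
CPM of 8 members in each of 6 libraries per subset (points), with the mean and SD as bars. Ccnb2, Ccnb1 and Cdc20 are highest in cDC1, Nusap1, Top2a and Rrm2 in cDC2, the cDC1 libraries of Cdc45 overlap the other subsets at their low end, and Fen1 overlaps in all 3 subsets.

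Birc5 encodes survivin, BUB1 guards the spindle checkpoint, PLK1 and the Aurora kinases drive mitotic entry and chromosome segregation. Birc5 lay at 35.3 to 48 CPM in cDC1 (median 40.1), 33.5 to 60.3 CPM in cDC2 (median 40.8) and 5.28 to 13.8 CPM in pDC (median 10.5). It was not called between cDC1 and cDC2 (log2 -0.04 ± 0.18, adjusted p = 0.87), and exceeded pDC by 2.23 ± 0.19 (adjusted p = 2.9e-09) and 2.27 ± 0.19 (adjusted p = 2.1e-09). Bub1 lay at 4.73 to 6.23 CPM in cDC1 (median 5.33), 5.21 to 9.37 CPM in cDC2 (median 6.11) and 0.335 to 1.38 CPM in pDC (median 1.03). Its lowest value rests on 9 counts. The conventional subsets overlapped (log2 -0.30 ± 0.22, adjusted p = 0.26) and exceeded pDC by 2.72 ± 0.24 (adjusted p = 4e-09) and 3.02 ± 0.24 (adjusted p = 8.4e-10). Plk1 lay at 3.74 to 11.2 CPM in cDC1 (median 4.88), 4.73 to 8.09 CPM in cDC2 (median 5.56) and 0.695 to 2.23 CPM in pDC (median 1.58), and cDC1 and cDC2 overlapped widely (log2 0.01 ± 0.25, adjusted p = 0.98). Plk1 was above pDC by 2.22 ± 0.27 in cDC1 (adjusted p = 5.1e-07) and 2.21 ± 0.27 in cDC2 (adjusted p = 5.5e-07). Aurka and Aurkb were lower in cDC1 than in cDC2, by log2 0.54 (adjusted p = 0.001) and 0.78 (adjusted p = 2.3e-05).

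Of the 7 spindle and kinetochore genes, 3 were lower in cDC1 than in cDC2 (Kif11, a spindle motor, Tpx2, which activates Aurora A, and Nusap1) and 4 were not called. Nusap1 ran from 6.97 to 12.6 CPM in cDC1 (median 8.36), from 22.3 to 33.3 CPM in cDC2 (median 24.9) and from 2.04 to 7.52 CPM in pDC (median 4.38). All cDC2 libraries lay above the rest, and cDC1 and pDC overlapped. Its log2 fold changes were -1.62 ± 0.20 for cDC1 minus cDC2 (adjusted p = 1.1e-06), 1.10 ± 0.21 for cDC1 minus pDC (adjusted p = 8.5e-05) and 2.72 ± 0.21 for cDC2 minus pDC (adjusted p = 4.5e-10). Oip5, whose exons overlap those of Nusap1 on the opposite strand, itself differed by -1.45 between cDC1 and cDC2. The call for Tpx2 (log2 -0.44, adjusted p = 0.029) was lost without a157, a166, a158, a161 or a165 (adjusted p 0.053 to 0.092). A fit of the 2 subsets alone over all genes that both list also lost it (adjusted p = 0.054). Of those not called, Kif20b (log2 -0.37) passed without a160, a163 or a170, Cenpf (log2 -0.37) without a167, a170, a159 or a174, and Hmmr (log2 0.38) without a157, a158 or a165, the last with cDC1 higher. Kif20b also passed with DESeq2 (adjusted p = 0.045) and limma (adjusted p = 0.039). Cenpf also passed with DESeq2 (adjusted p = 0.041) and in the fits of the 2 subsets alone (adjusted p = 0.039 and 0.045). Cenpe, a kinetochore motor, lay at 10.6 to 19.4 CPM in cDC1 (median 15.5), 11.8 to 18.5 CPM in cDC2 (median 14) and 1.59 to 4.69 CPM in pDC (median 2.48). It did not differ detectably between cDC1 and cDC2 (log2 0.06 ± 0.18, adjusted p = 0.79) and exceeded pDC by 2.65 ± 0.20 (adjusted p = 2.1e-10) and 2.58 ± 0.20 (adjusted p = 3e-10). Within cDC1 the Ccnb2 count was 6.04 to 9.15 times the Nusap1 count, against 0.967 to 1.21 times in cDC2 and 0.923 to 2.07 times in pDC, a ratio also chosen after the values were seen.

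Mki67, which codes for the Ki-67 protein used to stain cycling cells, and Top2a, the topoisomerase that untangles chromosomes, were not parallel. Mki67 lay at 14.8 to 26.9 CPM in cDC1 (median 19.5), 18 to 33.5 CPM in cDC2 (median 24.6) and 1.59 to 5.67 CPM in pDC (median 3.73). The conventional subsets overlapped (log2 -0.35 ± 0.21, adjusted p = 0.17) and were above pDC by 2.63 ± 0.23 (adjusted p = 2.4e-09) and 2.98 ± 0.23 (adjusted p = 3.8e-10). Top2a lay at 12.4 to 20.9 CPM in cDC1 (median 16.8), 34.7 to 60.1 CPM in cDC2 (median 46.7) and 5.77 to 12.7 CPM in pDC (median 7.58). Every cDC2 library was above every cDC1 library, and the highest pDC library reached just past the lowest of cDC1. Top2a differed by log2 -1.49 ± 0.18 for cDC1 minus cDC2 (adjusted p = 6.3e-07), 1.23 ± 0.18 for cDC1 minus pDC (adjusted p = 5.3e-06) and 2.72 ± 0.19 for cDC2 minus pDC (adjusted p = 6.6e-11).

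The spread between libraries of a subset was described by the coefficient of variation, with no test. The median coefficient of variation over 6 libraries was 19.1% for mitotic and 16.3% for S-phase genes in cDC1, 21.1% and 12.7% in cDC2, and 36.8% and 17.7% in pDC. Over all genes at or above the lowest member's mean it was 17.8%, 11.5% and 11.6% in cDC1, cDC2 and pDC. Plk1 varied most among members in cDC1 (45.8%), Kif11 in cDC2 (33.3%) and Rrm2 in pDC (57.6%). The mitotic genes also had lower levels, with a median of 4.36 CPM against 18.4 CPM for S-phase genes in pDC, and counting error alone would give them a coefficient of about 9.1% there against 4.42%. In cDC1 the library a172, which stood apart over all genes, was highest for 22 of the 42 genes, in cDC2 a165 was highest for 21, and in pDC a159 was lowest for 25. The same was not counted over all genes, so these counts are not read as particular to members. They use CPM over library totals, and the TMM factor of a172 was 1.08, against 0.851 to 0.985 in the other cDC1 libraries.

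Other genes of the same pathways, from 3 lists that hold no member, were counted alongside. The shares of all genes tested to set beside them are 25.7% lower and 24.8% higher in cDC1 than in cDC2, 34.3% higher and 32.1% lower in cDC1 than in pDC, and 32.2% higher and 32% lower in cDC2 than in pDC. Of 40 replication genes, 34 were lower and 1 was higher in cDC1 than in cDC2, 26 were higher and 6 lower in cDC1 than in pDC, and 36 were higher and 2 lower in cDC2 than in pDC. Pold1 and Pold2, subunits of DNA polymerase delta, were the 2 that were lower in cDC2 than in pDC (log2 -0.81 and -0.99), and are named after their values were seen. Of 53 mitosis genes, 29 were lower and 4 higher in cDC1 than in cDC2, 45 were higher and 4 lower in cDC1 than in pDC, and 49 were higher and 2 lower in cDC2 than in pDC. Foxm1, whose product is named above for the mitotic wave, was among the 4 lower in cDC1 than in pDC. It differed by log2 -0.67 ± 0.23 (adjusted p = 0.014), at 1.79 to 4.31 CPM in cDC1 and 3.95 to 6.59 CPM in pDC. It too is named after its values were seen. Of 29 genes of G1 and quiescence tested, 16 were lower and 3 higher in cDC1 than in cDC2, 15 were higher and 10 lower in cDC1 than in pDC, and 15 were higher and 7 lower in cDC2 than in pDC.

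Myc, a growth transcription factor, gave the largest difference from pDC among these genes in both comparisons. It lay at 7.48 to 19.9 CPM in cDC1, 15.9 to 26.3 CPM in cDC2 and 0.45 to 1.66 CPM in pDC, which gave log2 3.78 ± 0.28 for cDC1 (adjusted p = 1.7e-10) and 4.54 ± 0.28 for cDC2 (adjusted p = 1.2e-11). Cdca7, a chromatin gene under MYC and E2F control, was higher in cDC1 than in pDC by log2 3.49 ± 0.28 (adjusted p = 8e-10), and Gins1, a partner of Gins2, was higher in cDC2 than in pDC by 3.90 ± 0.13 (adjusted p = 1.2e-15). Between the conventional subsets the widest differences were those of E2f2, an activating E2F (log2 -2.24 ± 0.19, adjusted p = 3.5e-09), and of Ccnd1, which encodes the G1 cyclin D1 (-2.03 ± 0.23, adjusted p = 3.8e-07). Ccnd1 stood at 41.3 to 92.8 CPM in cDC1, 162.5 to 397.9 CPM in cDC2 and 150.9 to 238.7 CPM in pDC, an order unlike that of most members.

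Transcripts of other cell types that can divide or carry such RNA were present in all subsets. The summed level of 9 erythroid markers was 3270 to 8910 CPM in cDC1, 3200 to 5690 CPM in cDC2 and 2340 to 6530 CPM in pDC. Most of it was globin, and Klf1, a factor of erythroid precursors, was at 0.659 to 5.61, 0.575 to 2.25 and 0.0818 to 4.56 CPM. The 7 neutrophil markers summed to 287 to 1110 CPM in cDC1, 27.2 to 147 CPM in cDC2 and 12.4 to 291 CPM in pDC. Markers of plasma cells (5 genes, 4 of them listed for cDC2) summed to 18.5 to 360 CPM, 8.25 to 31.2 CPM and 156 to 397 CPM. In cDC1 this was mostly Jchain (15.9 to 352.3 CPM), with Sdc1 at most at 0.74 CPM and Tnfrsf17 at most at 0.862 CPM. In pDC it was mostly Mzb1 (113.4 to 174.7 CPM) and Jchain (6.03 to 223.5 CPM), with Sdc1 at 16.2 to 22.8 CPM and Tnfrsf17 at most at 0.724 CPM. Progenitor markers (5 genes, 4 of them listed for pDC) summed to 492 to 641 CPM, 461 to 620 CPM and 356 to 417 CPM, and were mostly Flt3, which dendritic cells themselves express. Kit was at 50.7 to 112 CPM in cDC1, 125 to 180 CPM in cDC2 and 4.81 to 10.8 CPM in pDC, the same order as most members. The T cell list (6 genes) summed to 35.2 to 78.5 CPM in cDC1, 109 to 181 CPM in cDC2 and 511 to 1250 CPM in pDC, where it was mostly Cd8b1 and Cd4, while Cd3e was at 0.271 to 1.19 CPM. The B cell list (6 genes) summed to 123 to 192 CPM, 81.3 to 97.5 CPM and 80.7 to 158.8 CPM, with Pax5 at most at 0.659 CPM. The macrophage list (6 genes) summed to 71.9 to 183 CPM in cDC1, 404 to 647 CPM in cDC2 and 8.37 to 19 CPM in pDC. The monocyte list (4 genes) summed to 64.3 to 392 CPM, 38.6 to 87.2 CPM and 7070 to 7950 CPM, the last mostly Ly6c2, with Fcgr1 at most at 0.315 CPM in pDC. NK cell markers summed to at most 16.6 CPM and basophil markers to at most 4.94 CPM in any library. The part of these cells in the differences above was not tested.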

How the data were processed

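The authors deposited raw and normalized tables for each subset. Raw values are whole-number counts per gene, per the file headers and values; kallisto, DESeq2 and GRCm38 stand in the submitters' processing notes with no role or version, so the deposited counts may be rounded estimates. Each table lists only genes with at least 10 counts over its 6 columns. The 18 normalized columns were scaled per subset and not used. RNA libraries followed a SMARTER protocol, per the labels' protocols.

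Counts of the 15219 genes listed in all 3 tables were fitted with edgeR 4.0.16 in R 4.3.3 (TMM, filterByExpr, quasi-likelihood test, 3 groups of 6 libraries). This left 13539 genes, all 42 members among them, and p-values were adjusted over these by Benjamini-Hochberg, with calls at 0.05. SE is the fold change divided by the root of the F statistic. CPM are over each library's own table total, and levels per kilobase use exons of GENCODE M21. The code was tested on simulated data. DESeq2 1.42.0, limma 3.58.1, other scaling, filters, 2-subset fits and each library left out were alternatives. The members and lists were chosen with earlier results of these data known. Values are given in full, within each of 8 role groups, for the member with the highest mean and those with the largest and smallest fold change, and of other pathway genes for the 2 largest per comparison. Genotype could not be assigned, and its comparison was not made.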

Additional observations from a re-analysis of the deposited data

Results flagged for a closer look

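Within the 3 subsets, single libraries stood apart from their nearest neighbour by more than Dixon's 95% limit for 6 of the 132 groups of 6 values examined, and chance alone gives about 1 in 20. In cDC1, Ccne2 was lowest in a166 at 4.42 CPM, with the next library at 6.51 CPM, and Plk1 was highest in a172 at 11.2 CPM, with the next at 6.52 CPM. In cDC2, a165 was highest for Cdc6 (15.6 CPM, next 11 CPM) and for Cdc45 (76.9 CPM, next 57.4 CPM), and a161 was lowest for Slbp (170.8 CPM, next 202.4 CPM). In pDC, Hmmr was lowest in a159 at 2.25 CPM, with the next library at 3.39 CPM.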

How the results depend on the processing

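Over 8 other settings of the fit, 95 of 96 counts of calls stayed within 1.5 times the value reported. Of 1008 member differences, 990 kept their side of the threshold and, where called, their direction. A change of sign with no call in either fit was counted as kept, as for Rfc2 between cDC1 and pDC with DESeq2. The count that moved was that of members higher in pDC than in cDC1, which was 3 with library totals in place of TMM (Rfc2, E2f1 and Slbp) and 0 to 1 when each library was left out in turn. With library totals Rfc2 went from 0.00 to -0.21. Of 2268 member differences with 1 library left out, 26 lost and 20 gained a call, and none changed sign as a call. The S-phase sums without Pcna were 818 CPM in cDC1, 1130 CPM in cDC2 and 590 CPM in pDC. With Pcna, the pDC sum was 727 CPM over library totals and 660 CPM over TMM library sizes. The mitotic sum of cDC1 without Ccnb2 was 312 CPM. No paired analysis was possible because library codes bear no replicate number, while the sample titles do. Depth limits the lowest members of pDC most: Bub1 rests on 9 counts in its lowest library.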

Other observations

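The ratio of the mitotic to the S-phase sum lay in separate clusters in cDC2, where a158, a161 and a165 gave 0.331, 0.333 and 0.332 and a167, a170 and a173 gave 0.259, 0.26 and 0.268. In the same libraries Top2a stood at 60.1, 54.8 and 58.5 CPM and at 36.4, 38.6 and 34.7 CPM, and Mki67 at 33.5, 30.2 and 33.4 CPM and at 18.6, 18 and 18.9 CPM. The members named in this paragraph were chosen after the values were seen, and other members that split this way were not counted. The split was not particular to members. Over all genes, cDC2 pairs across these groups gave a chi-square per gene of 55.5 to 79.1, and pairs within them 10.9 to 55.2. In pDC, Cdc45 stood at 79.6, 90.7 and 56.5 CPM in a159, a162 and a164 and at 42.4, 38.3 and 37.4 CPM in a168, a171 and a174, while Rrm2 stood at 2.74, 8.98 and 4.91 CPM and at 17.6, 16.3 and 15.6 CPM in the same libraries. Cdc45 made up 12.2%, 13.3% and 8.21% of the S-phase sum of those first 3 pDC libraries and 5.33%, 4.81% and 4.99% of that of the others. Over all genes, pDC pairs across these groups gave a chi-square per gene of 42 to 65.4, and pairs within them 12.5 to 33.1. No label gives the genotype of these libraries, so the groups were not tested against each other. In pDC the widest gap of the S-phase sum fell between the same groups (687.7 and 748.9 CPM). The widest gap of Cdc45 lay instead between 56.5 and 79.6 CPM, and those of the mitotic sum and of the ratio also fell elsewhere. In both subsets the groups also follow the order of the codes, which no label links to genotype.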
